A study of Mus musculus with 20 samples.

Results

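Bmp15 and Oosp3 encode proteins that the oocyte secretes. They were followed here as mRNA from the mouse oocyte to the blastocyst through every probe set that the platform annotation assigns to either gene, with older gene names resolved through the Entrez identifier. That rule gave 2 genes of 9607 named there, with 3 probe sets of 22511 other than controls: 1420005_s_at and 1420006_at for Bmp15 (gene on chromosome X) and 1436437_at for Oosp3, formerly Gm97 (gene on chromosome 19). Total RNA of oocytes, 1-cell, 2-cell and 8-cell embryos and blastocysts was measured on 20 Affymetrix MOE430B arrays, 4 per stage, after 2 rounds of amplification by in vitro transcription. The labels name no strain, mating, culture or oocyte maturation stage, and nothing in them says that the 4 arrays of a stage came from separate pools, so the spread behind each p-value is that among these arrays and may be technical in part.

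BMP15 is a growth factor of the TGF-beta superfamily. The growing oocyte makes it together with GDF9, and both act on the surrounding granulosa and cumulus cells, where BMP15 signals through the type II receptor BMPR2, type I receptors such as BMPR1B, and SMAD proteins. OOSP3 belongs to a small family of oocyte-secreted proteins whose genes Oosp1, Oosp2 and Oosp3 are direct neighbours on mouse chromosome 19. Transcripts of this kind are stored in the egg and removed in the early embryo while its own genome is switched on.

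The sequence upstream of Bmp15 is shown because its expression is a hallmark of the oocyte and the regulators of oocyte genes are known by the letters they bind. RefSeq gave a promoter for 1 of the 2 genes, Bmp15. The 250 bases before its start lie at chrX:6320725-6320974 on the minus strand of GRCm38.p6, and capitals mark the motifs found.
Bmp15: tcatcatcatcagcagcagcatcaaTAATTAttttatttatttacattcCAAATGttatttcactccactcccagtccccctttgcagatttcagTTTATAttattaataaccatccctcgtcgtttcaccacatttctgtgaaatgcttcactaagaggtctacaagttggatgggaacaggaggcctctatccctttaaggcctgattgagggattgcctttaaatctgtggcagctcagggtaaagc
Both strands were searched for CANNTG, the E-box bound by factors such as FIGLA, for TAATTG and TAATTA, the elements of the oocyte homeobox factor NOBOX, for TATAAA and for AGGTCA, a nuclear receptor motif. The first capitals are a TAATTA element 225 to 220 bases before the start, the second an E-box at 201 to 196, and the third TATAAA on the opposite strand at 155 to 150, and no motifs overlapped. TAATTA stood in 4.84% of 32851 promoter windows of this length, an E-box in 66.2% and TATAAA in 12.4%. TAATTG (7.17% of windows) and AGGTCA (14%) were not among the letters of this window. The window is 40.4% G and C, against a median of 52.4% over all windows. A match is a description of the letters only.

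Values are linear intensities as deposited, each array scaled by the authors to a common mean, so a lower share of the signal and less RNA per embryo cannot be told apart. In bulk samples fewer cells of a type and less RNA per cell cannot be told apart either. Changes are on the log2(intensity + 20) scale, which understates the change of dim probe sets. They come from limma over all 20 arrays, with Benjamini-Hochberg adjustment over the 15234 probe sets bright enough to test, and a change was called at an adjusted p under 0.05. All 3 probe sets were among those tested.

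Both genes were bright from the oocyte to the 2-cell embryo and fell steeply by the 8-cell stage. Bmp15, read by the first and brighter of its probe sets, averaged 2793 ± 305 (SD, n = 4 arrays at every stage) in oocytes, 4103 ± 441 in 1-cell embryos, 2246 ± 597 in 2-cell embryos, 45.1 ± 53.6 in 8-cell embryos and 13.4 ± 15.8 in blastocysts. Oosp3 averaged 26310 ± 3610 in oocytes, 34280 ± 4450 in 1-cell embryos, 17700 ± 8430 in 2-cell embryos, 443 ± 37.8 in 8-cell embryos and 282.6 ± 68.8 in blastocysts. Relative to the oocyte mean, the 2-cell embryo held 80.4% of the Bmp15 signal and 67.3% of the Oosp3 signal, and the 8-cell embryo held 1.61% and 1.68% (0.664% for Bmp15 without 8-cell replicate 4). By the second probe set of Bmp15 those shares were 38.2% and 11.4%, and which of its probe sets reads the transcript better could not be settled here. By limma's moderated F test each of the 3 probe sets changed among the stages (adjusted p = 7.64e-16 for the first of Bmp15, 6.52e-11 for the second and 4.82e-18 for Oosp3), as did 53% of all probe sets tested.

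**Figure D1:**
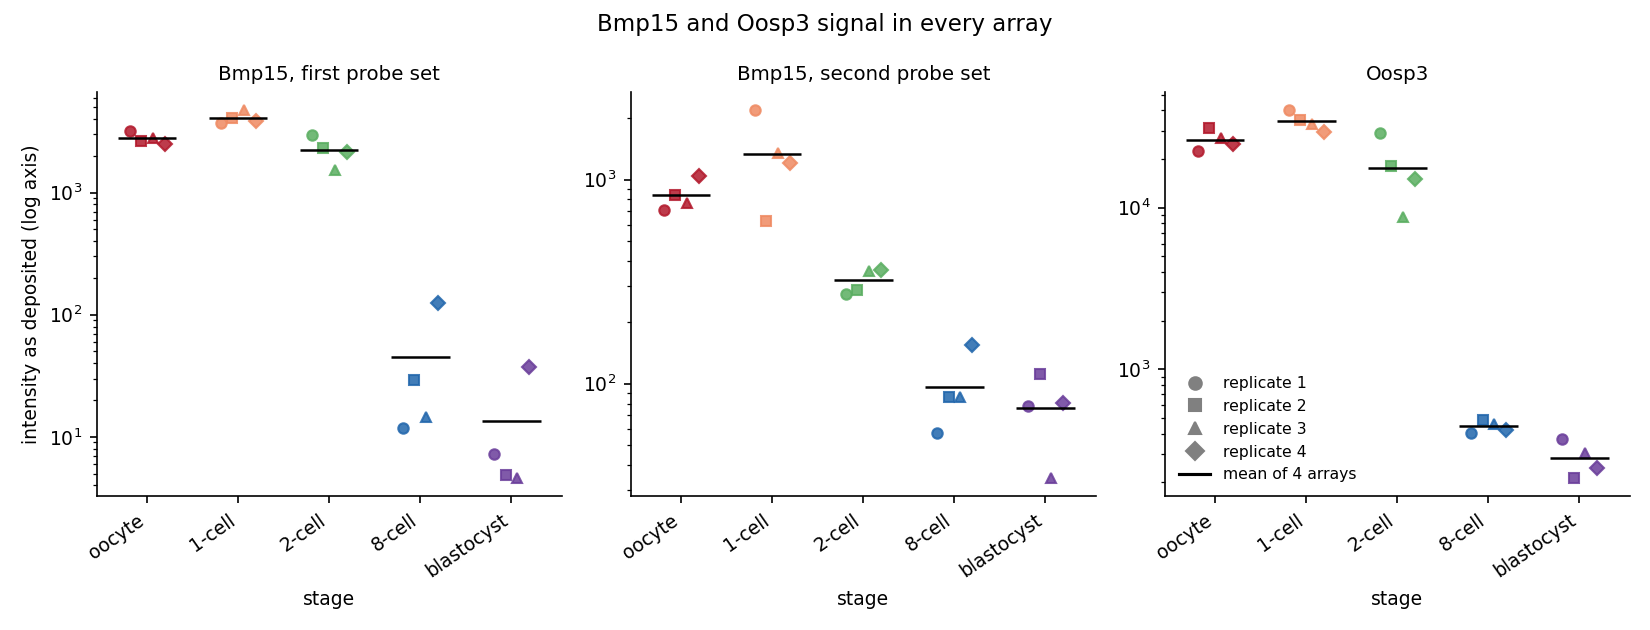
Intensity as deposited (log axes, a separate range in each panel) of the 3 probe sets on every array, by stage, with the 4 replicates as symbols and their mean as a line. All 4 arrays of the 8-cell stage and of the blastocyst lie below all arrays of the 3 earlier stages in each panel.

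Oosp3 sat at the top of the measured range early on. Its probe set was the brightest of all other than controls on 3 of 4 oocyte arrays and 3 of 4 1-cell arrays, and ranked no lower than 25 on the 2-cell arrays. Probe sets bind their targets with different strength, so this is a place on the intensity scale and not a rank of abundance. The deposited table carries no saturation flags and no detection calls.

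The 1-cell embryo, the stage after fertilization, was compared with the oocyte. Bmp15 by its first probe set read 3694.6, 4116, 4711.1 and 3888.8 on the 1-cell arrays, against 3208.3, 2626.9, 2821.9 and 2514.7 on the oocyte arrays. All 4 arrays of 1-cell embryos were above all 4 of oocytes, which was so for 6.38% of the probe sets tested. The log2 change was 0.55 (95% confidence interval -0.15 to 1.25, adjusted p = 0.441 by limma), and 2.67% of probe sets were called higher at this step. Oosp3 read 40014.2, 34732.3, 33060.5 and 29293.3 on the 1-cell arrays, against 22573.8, 30949.1, 27115 and 24615.4 on the oocyte arrays. Its groups overlapped, with 3 of 4 arrays of 1-cell embryos above every oocyte array. The log2 change was 0.38 (interval -0.13 to 0.90, adjusted p = 0.482 by limma), and its direction turned under quantile normalization, at -0.17. The second probe set of Bmp15 read 2187.4, 624.7, 1359.1 and 1206.2 on the 1-cell arrays and 711.8, 840.4, 771.6 and 1046.7 on the oocyte arrays. It changed by 0.54 (adjusted p = 0.378 by limma), with 1-cell replicate 2 below every oocyte array. No probe set of either gene was called at this step in the fit over all arrays. A fit of only the 2 stages called Bmp15 higher (adjusted p = 0.0233 by limma).

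The 2-cell stage was compared with the 1-cell stage because mouse embryos switch on most of their own transcription in this step. Oosp3 fell to 28895.6, 18167.5, 8722.9 and 15023.8 on the 2-cell arrays, against the 1-cell values given above. All 4 arrays of 2-cell embryos were below all 4 of 1-cell embryos, as for 10.5% of probe sets tested. The log2 change was -1.07 ± 0.25 (SE, adjusted p = 0.00229 by limma), a step at which 9.34% of probe sets were called lower. Bmp15 by its first probe set read 2977.1, 2322.5, 1524.9 and 2158.9 on the 2-cell arrays, again all below the 1-cell arrays. Its log2 change of -0.90 ± 0.34 did not pass (adjusted p = 0.0612 by limma). The other probe set of Bmp15 did pass, at 276.7, 289.4, 358 and 363 on the 2-cell arrays and a log2 change of -1.88 ± 0.30 (adjusted p = 4.14e-05 by limma). The call for the first probe set was made with a pseudocount of 80 (adjusted p = 0.00286 by limma), a common median (0.0166), array weights (0.0185), a filter at the 75th percentile (0.048) and only the 2 stages (0.00534). It was also made without 1 of 4 arrays: 8-cell replicate 4 (adjusted p = 0.00687 by limma), 8-cell replicate 1 (0.0484), 2-cell replicate 1 (0.0439) or blastocyst replicate 4 (0.0411). In 4 of 11 other settings the change stayed uncalled. Over those 11 its log2 value ran to -0.50 and its adjusted p by limma to 0.352. Without 1 array it stayed uncalled in 16 of 20 fits (adjusted p up to 0.19 by limma). Set against oocytes, Oosp3 in 2-cell embryos lay at the threshold, with a log2 change of -0.69 and an adjusted p of 0.050004 by limma, where 9.68% of probe sets were called lower. Without 2-cell replicate 1 that p was 0.00227, without blastocyst replicate 1 or 1-cell replicates 1 or 4 it was 0.0476 to 0.0494, and without 2-cell replicate 3 it was 0.251. Bmp15 in 2-cell embryos differed from oocytes by -0.35 (adjusted p = 0.546 by limma), against -1.33 (adjusted p = 0.00189) for the second probe set.

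In 8-cell embryos both transcripts fell, Oosp3 and the first probe set of Bmp15 by more than at any other step. Bmp15 by its first probe set read 11.8, 29.3, 14.5 and 124.7 on the 8-cell arrays, against 1524.9 to 2977.1 on the 2-cell arrays. Replicate 4 stood above the other three. The mean was 49.8-fold lower than in 2-cell embryos, or 121-fold without that array. Without detection calls the 8-cell values may lie at background, so these folds are rough. The fit gave a log2 change of -5.38 ± 0.34 (adjusted p = 6.54e-12 by limma). Oosp3 read 402.4, 486.6, 460.7 and 422.2 on the 8-cell arrays, against 8722.9 to 28895.6 on the 2-cell arrays. These 4 arrays were the tightest of its stages, with a coefficient of variation of 8.54% against 47.6% in 2-cell embryos. The mean was 40.0-fold lower, with a log2 change of -5.13 ± 0.25 (adjusted p = 8.99e-14 by limma). At this step 13.4% of all probe sets were called lower, and 13% had all 4 arrays of 8-cell embryos below all 4 of 2-cell embryos. The second probe set of Bmp15 read 57.4, 85.9, 85.9 and 155.5 on the 8-cell arrays, a log2 change of -1.61 ± 0.30 from the 2-cell stage (adjusted p = 2.00e-04 by limma). No stage between the 2-cell and 8-cell stages was measured, so where within this step the loss fell is not known.

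**Figure D2:**
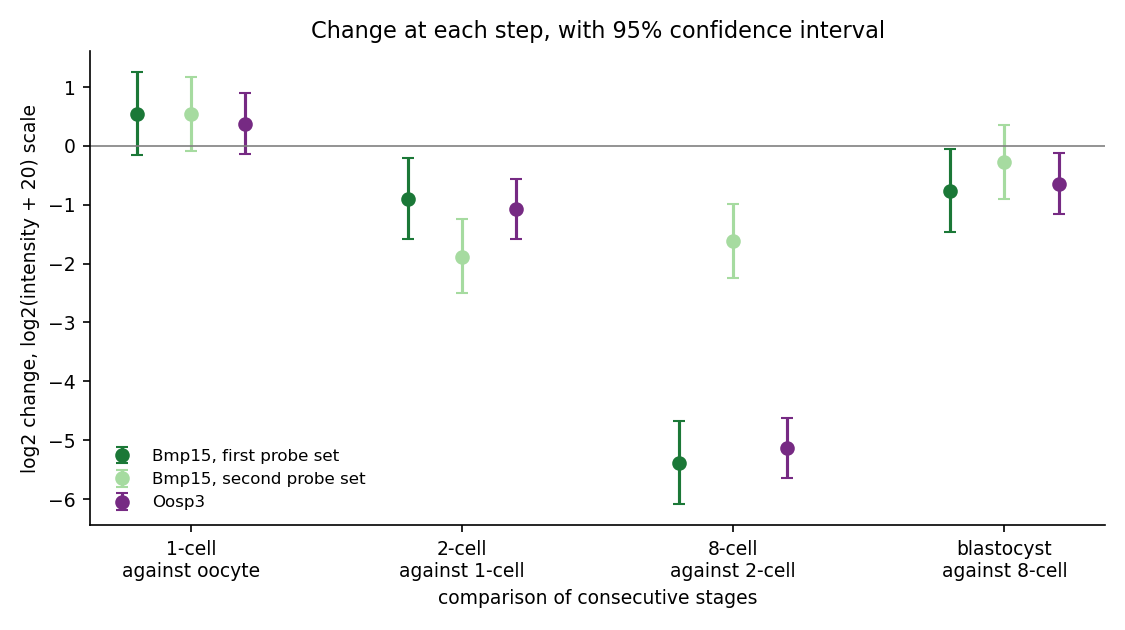
Log2 change between consecutive stages (points) with 95% confidence intervals from limma for the 2 probe sets of Bmp15 and the 1 of Oosp3. The step to the 8-cell stage is the largest for the first probe set (-5.38) and Oosp3 (-5.13), whereas the second probe set changed by -1.88 at the step to the 2-cell stage and by -1.61 at the step to the 8-cell stage.

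Between the 8-cell stage and the blastocyst neither gene passed the test. Oosp3 read 369.8, 212.5, 301.8 and 246.3 in blastocysts, all below the 8-cell arrays, where 8.77% of probe sets did the same. The log2 change was -0.64 (interval -1.15 to -0.12, adjusted p = 0.0945 by limma), with 6.58% of probe sets called lower. Without 2-cell replicate 1 or 2-cell replicate 3, which enter through the shared spread, it was called (adjusted p = 0.0386 and 0.0345). Bmp15 by its first probe set read 7.2, 4.9, 4.6 and 37.1 in blastocysts, with replicate 4 apart and inside the range of the 8-cell arrays. The log2 change was -0.76 (adjusted p = 0.15 by limma), and -1.05 (adjusted p = 0.0394) without blastocyst replicate 4. By the second probe set the blastocysts read 77.4, 111.2, 34.5 and 80.3, overlapping the 8-cell arrays. Over the whole span the blastocyst differed from the oocyte by -6.49 ± 0.34 for Bmp15 (adjusted p = 8.28e-14 by limma) and by -6.46 ± 0.25 for Oosp3 (adjusted p = 3.8e-16), where 16.1% of probe sets were called lower. Ordered by level, each gene ran 1-cell, oocyte, 2-cell, 8-cell, blastocyst from high to low, and neighbours in that order were called different by limma only at the step between the 2-cell and 8-cell stages in all 3 probe sets, and between oocyte and 2-cell for the second probe set.

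The 2 genes were set against each other by the change in the per-array difference of their log2 values, with an exact permutation test of 4 against 4 arrays, whose smallest 2-sided p is 0.0286. Over the 7 comparisons made, Bmp15 by its first probe set changed by -0.25 to 0.34 log2 units more or less than Oosp3, and none passed (exact p between 0.171 and 0.971, adjusted p = 0.971 in each). At the step from the 2-cell to the 8-cell stage the difference was -0.25, with a spread of 1.03 (SD, n = 4) among the 8-cell arrays and 0.32 among the 2-cell arrays. The sign turned with a pseudocount of 80, at 0.70. A p that misses the threshold does not show that the genes changed alike. After adjustment over 7 comparisons, a difference in only 1 of them could not pass, even with all 4 arrays apart. Read by its second probe set, Bmp15 lost 3.52 log2 units less than Oosp3 at this step, with all 4 arrays apart (exact permutation p = 0.0286, adjusted p = 0.0667 over 7 comparisons). The 2 probe sets of Bmp15 differed from each other by 3.77 units at the same step (exact permutation p = 0.0286, adjusted p = 0.0667). Both are annotated to 1 and the same sequence record. An s_at probe set can hold probes shared between transcripts, and its probe sequences were not used here.

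Across the 20 arrays the log2 values of Oosp3 and of Bmp15 by its first probe set correlated at r = 0.984, a description that rests on the stages and on arrays that both genes share. Once each stage's mean was taken away, the deviations correlated at 0.19, and at -0.17 over the 16 arrays without the 2-cell stage. Within the 2-cell stage the arrays took 1 order for Oosp3 and the first probe set of Bmp15, replicate 1 highest, then 2, 4 and 3. The second probe set of Bmp15 did not follow it, with replicate 1 lowest at 276.7 and replicate 4 highest at 363. The same order was found in 5.58% of all probe sets tested and in 16.6% of the 2037 called lower in 8-cell than in 2-cell embryos. It is also the order of these arrays along the first principal component of all probe sets tested, at -29.7, -14.4, -8.0 and -1.0 for replicates 1, 2, 4 and 3, where oocytes and 1-cell embryos lay between -83.7 and -67.7 and the 8-cell embryos and blastocysts between 74.8 and 84.7. The part of this spread in the 2-cell values of either gene was not tested.

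**Figure D3:**
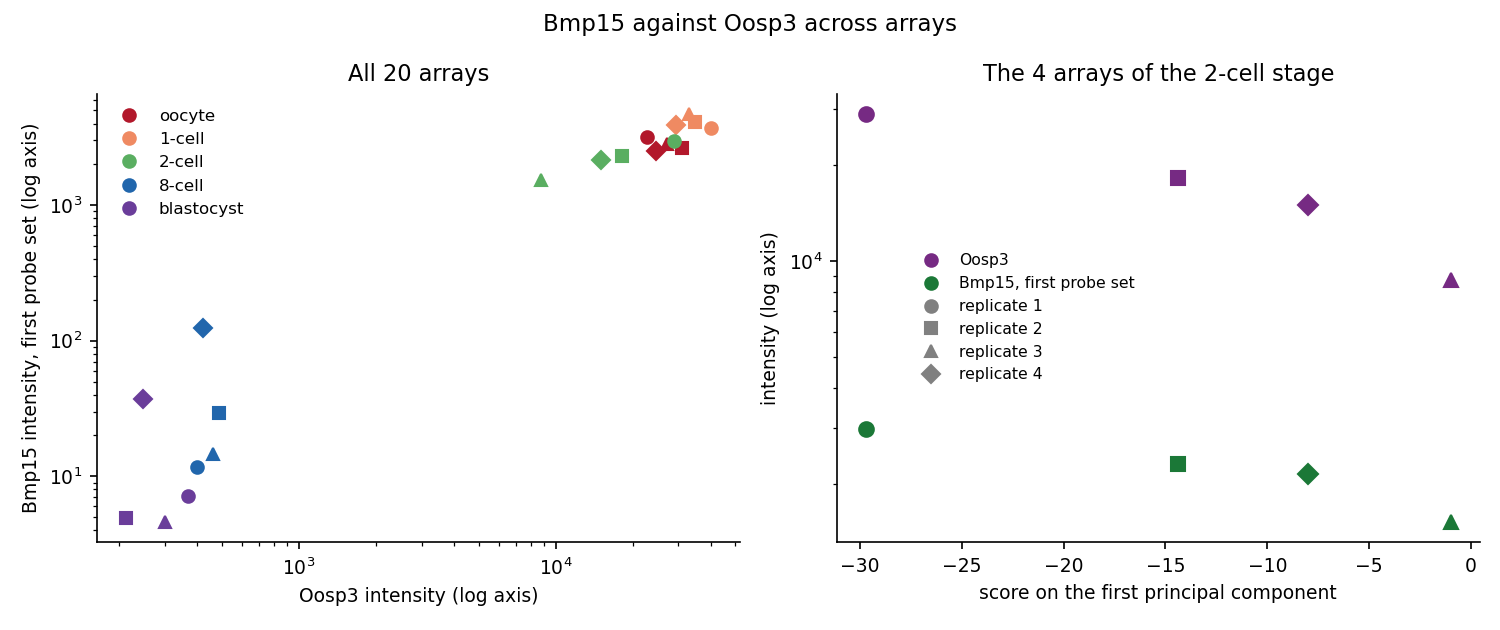
Left, intensity of Bmp15 (first probe set) against Oosp3 on all 20 arrays, log axes, coloured by stage, with early stages together at the upper right and later ones at the lower left. Right, both intensities (log axis) on the 4 arrays of the 2-cell stage against their score on the first principal component, where the array at -29.7 is highest and the array at -1.0 lowest for both genes.

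Of 18 listed oocyte-secreted proteins and their partners, 5 were measured, Bmp15 and Oosp3 among them. Gdf9 and the zona pellucida genes are not among the probe sets named here. The other 3, Oosp2, Astl and Tgfb2, were all called lower in 8-cell than in 2-cell embryos, as were 13.4% of all probe sets. Their median log2 change was -1.64, against 0.10 over all probe sets. In 2-cell against 1-cell embryos 2 of the 3 were called lower, as were 9.34% of all probe sets. Tgfb2 was dim, at 56.62 ± 33.3 (SD, n = 4) in oocytes, 156.7 ± 54.1 in 1-cell embryos, 113.5 ± 11.7 in 2-cell embryos and 48.58 ± 15.5 in 8-cell embryos. It was called higher in 1-cell embryos than in oocytes (log2 change 1.25, adjusted p = 0.013 by limma), as were 2.67% of probe sets. In 8-cell embryos it was not called against oocytes (-0.09, adjusted p = 0.846 by limma). Oosp2, the relative of Oosp3 on chromosome 19, had fallen further by the 2-cell stage. It averaged 15130 ± 2520 (SD, n = 4) in oocytes, 9371 ± 1120 in 1-cell embryos, 1989 ± 1040 in 2-cell embryos, 45.1 ± 39.6 in 8-cell embryos and 23.8 ± 12.1 in blastocysts. In 2-cell embryos it kept 13.1% of its oocyte level, against the 67.3% of Oosp3. The log2 change of Oosp3 exceeded that of Oosp2 by 1.06 from the oocyte to the 1-cell stage and by 1.28 from there to the 2-cell stage, with all 4 arrays of the later stage above all 4 of the earlier one in both (exact permutation p = 0.0286, the smallest possible, adjusted p = 0.04 over 7 comparisons). Without any 1 oocyte array the difference in 1-cell embryos moved little (0.99 to 1.10) but did not pass (adjusted p = 0.0667 by the exact permutation test). The differences of 2-cell embryos, 8-cell embryos and blastocysts from oocytes did not pass then either (adjusted p = 0.0667, 0.08 and 0.08). This test has few possible p-values with so few arrays. At the step from the 2-cell to the 8-cell stage the difference was -0.09, with 2 arrays of 8-cell embryos above and 2 below those of 2-cell embryos. With a pseudocount of 5 it was 0.45, and with 80 it was -0.99 and passed (adjusted p = 0.0333 by the exact permutation test). The comparison with Oosp2 was added after the values were seen. Astl, the ovastacin protease that cleaves the zona pellucida after fertilization, fell at every step, to 59.1% of its oocyte level in 1-cell embryos, 22.5% in 2-cell embryos, 7.13% in 8-cell embryos and 4.18% in blastocysts. Its log2 change from the oocyte to the 1-cell stage was -0.75 ± 0.18 (adjusted p = 0.00719 by limma), where 4.26% of probe sets were called lower.

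**Figure D4:**
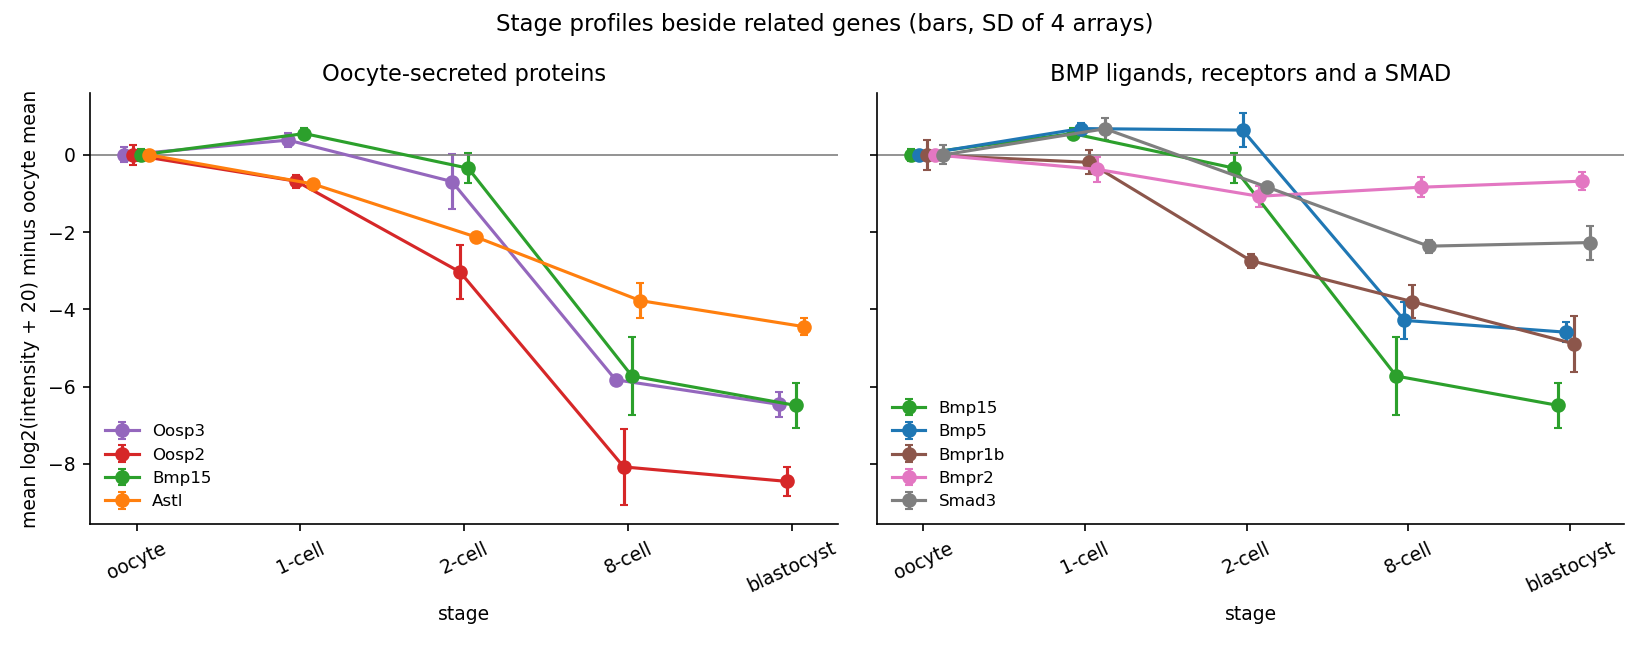
Mean log2(intensity + 20) at each stage minus the oocyte mean of the same gene (bars, SD of 4 arrays). Left, in 2-cell embryos Oosp3 lies at -0.69, Bmp15 by its first probe set at -0.35 (its second, not drawn, at -1.33), Oosp2 at -3.03 and Astl at -2.13. Right, Bmp15 beside the ligand Bmp5 (0.64 in 2-cell embryos), the receptors Bmpr1b (-2.74) and Bmpr2 (-1.07) and the signal transducer Smad3 (-0.83).

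Of 28 listed BMP ligands, antagonists and proprotein convertases 7 were measured. None was called in 2-cell against 1-cell embryos by limma. In 8-cell against 2-cell embryos 1 was called lower, 1 higher and 5 were not called (median 0.34). Of all probe sets 13.4% were called lower and 14.1% higher at this step, so 1 of 7 each way is near the share over all. The one called lower was Bmp5, another ligand of the family, at 107.5, 224, 115.5 and 199.3 on the 8-cell arrays, against 7661.3, 5900.1, 3800.9 and 4540.5 on the 2-cell arrays. Its log2 change was -4.93 ± 0.21 (adjusted p = 1.47e-14 by limma). In 2-cell embryos Bmp5 read 162% of its oocyte mean and was called higher than in oocytes (log2 change 0.64, adjusted p = 0.0333 by limma, with 11.9% of probe sets called higher). Bmp8b was the one called higher in 8-cell embryos, at 248.7 ± 44.4 against 129 ± 57.1 in 2-cell embryos. The antagonist Fst (294.1 ± 113 in oocytes) and the BMP-binding protein Bmper (134.5 ± 31.7 in oocytes) were not called at either step.

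Of 26 listed receptors, SMADs and their targets and ligases 14 had a probe set and 11 were bright enough to test. In 2-cell against 1-cell embryos 7 were called lower, 1 higher and 3 were not called. The median log2 change was -1.11, against 0.07 over all probe sets, of which 9.34% were called lower and 12.2% higher. In 8-cell against 2-cell embryos 5 were called lower, 1 higher and 5 were not called (median 0.22). Of all probe sets 13.4% were called lower and 14.1% higher there. Bmpr1b, a type I receptor of BMP15, fell at the step to the 2-cell stage, at 256.7, 189.1, 244.8 and 240.5 on the 2-cell arrays against 1252.5, 1790.6, 1683.1 and 1153.7 on the 1-cell arrays. Its log2 change was -2.54 ± 0.28 (adjusted p = 2.03e-07 by limma). At this step Bmp15 changed by -0.90 (first probe set, not called) and -1.88 (second), and Oosp3 by -1.07. Bmpr2, the type II receptor, had stage means of 1019 to 2137. It read 1019 ± 183 in 2-cell embryos and 1674 ± 366 in 1-cell embryos (log2 change -0.70, adjusted p = 0.00564 by limma), and 1338 ± 230 in blastocysts. Smad3, which carries activin and GDF9 signals, fell at both steps, by 1.51 and 1.53 log2 units, and its mean was 389.4 ± 50.7 in 8-cell embryos. Smurf2, a ubiquitin ligase of this pathway, was not called at the step to the 2-cell stage and fell at the step to the 8-cell stage, to 1291 ± 179 against 4750 ± 495 in 2-cell embryos.

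Of 21 listed oocyte transcription factors and regulators 10 were measured. In 2-cell against 1-cell embryos 5 were called lower and 2 higher, and in 8-cell against 2-cell embryos 4 lower and 2 higher (median -0.46). Of all probe sets 9.34% were called lower and 12.2% higher at the first of these steps, and 13.4% lower and 14.1% higher at the second, so 2 of 10 higher is near the share over all. Obox6 was among those called higher at both steps, at 35.15 ± 8.29 in oocytes and 7828 ± 800 in 2-cell embryos. It also stands in the list of cleavage-stage markers used below. Obox5, an oocyte homeobox gene, had a course like that of Oosp3, at 14740 ± 1910 in oocytes, 27280 ± 5200 in 1-cell embryos, 10120 ± 5590 in 2-cell embryos and 293.4 ± 46.4 in 8-cell embryos. Jag1, a Notch ligand made by the oocyte, fell at both steps, with log2 changes of -3.20 and -2.73, and averaged 566.3 ± 187 in 2-cell embryos against 5429 ± 1940 in 1-cell embryos. Kdm1b, the histone demethylase needed for oocyte imprints, fell at both steps, by 1.61 and 2.47 log2 units. Hdac2, a histone deacetylase, read 2384 ± 599 in 8-cell embryos and 1407 ± 502 in 2-cell embryos (log2 change 0.79, adjusted p = 0.00523 by limma). Figla, Nobox and Lhx8, which drive oocyte genes, were not analysed here.

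Of 36 listed genes of maternal RNA storage and clearance 14 had a probe set and 13 were tested. In 2-cell against 1-cell embryos 6 were called lower and 2 higher, and in 8-cell against 2-cell embryos 5 lower and 1 higher (median -0.42). The shares called higher, 2 of 13 and 1 of 13, are near the 12.2% and 14.1% of all probe sets, of which 9.34% and 13.4% were called lower. Pabpn1l, an oocyte poly(A)-binding protein that recruits the deadenylation machinery, was nearly gone by the 2-cell stage, at 23.2 ± 9.59 against 1624 ± 380 in 1-cell embryos. Zar1, which binds stored oocyte mRNA, fell to 1190 ± 293 in 2-cell embryos, against 14690 ± 2340 in 1-cell embryos. Lsm14a, a component of stored mRNA particles, had log2 changes of -1.11 at that step and -2.36 at the next. Patl2, an oocyte RNA-binding protein, fell by 1.27 and 0.83 log2 units at the same steps. Both had higher means again in blastocysts than in 8-cell embryos. Lsm14a averaged 4574 ± 771 against 1699 ± 497, and Patl2 877.2 ± 204 against 256.5 ± 23.4.

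The genes whose course was most like that of either member were ranked by Pearson's r of log2 values over the 20 arrays, which all of them share. The closest to Bmp15 by its first probe set were Fam199x and Tafa2 (r = 0.988 each), Nlrp9c (0.987), Klhl8, Pramel29 and Rapgef5 (0.986 each), Oosp3 (0.984) and Trim61 (0.983). The closest to Oosp3 were Trim61, Rapgef5 and Nlrp9c (0.991 each), Kbtbd8 (0.99), Nlrp4a, Trim75 and Obox5 (0.989 each) and Taf9b (0.988). Nlrp9c and Nlrp4a belong to the oocyte NLRP genes, Trim61 and Trim75 are RING finger genes, Klhl8 and Kbtbd8 encode Kelch proteins, Rapgef5 a Rap exchange factor, and Taf9b a TFIID subunit. These lists share 3 genes, Nlrp9c, Rapgef5 and Trim61. By the second probe set of Bmp15 the 8 closest were others, Camta1 (0.962), Myo5b, Elmod2 and Cnksr3 (0.957 each), Kbtbd7 (0.956), D6Ertd527e (0.955), Lrrc17 (0.954) and Ccdc69 (0.953), without Oosp3. In all, 476 probe sets (3.12% of those tested) correlated above 0.9 with the first probe set of Bmp15, 269 (1.77%) with the second and 529 (3.47%) with Oosp3, so these names are the top of a broad group. Beside the members the lists of Oosp3 and of the first probe set of Bmp15 hold 12 genes, all of them called lower in 8-cell than in 2-cell embryos by -6.45 to -2.61 log2 units, and 9 of them lower in 2-cell than in 1-cell embryos. These counts follow from the choice of genes by likeness. From the oocyte to the 1-cell stage 2 of the 12 were called higher and 11 had a positive log2 change, up to 1.10 for Trim61. Promoters were found for 11 of the 12. An E-box stood in 9 of these 11, TAATTG in 3, TAATTA in 1, AGGTCA in 2 and TATAAA in 0. Some genes have several windows there and were counted where any held the motif. The shares over all promoters given above are per window, so these counts per gene have no like share beside them.

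**Figure D5:**
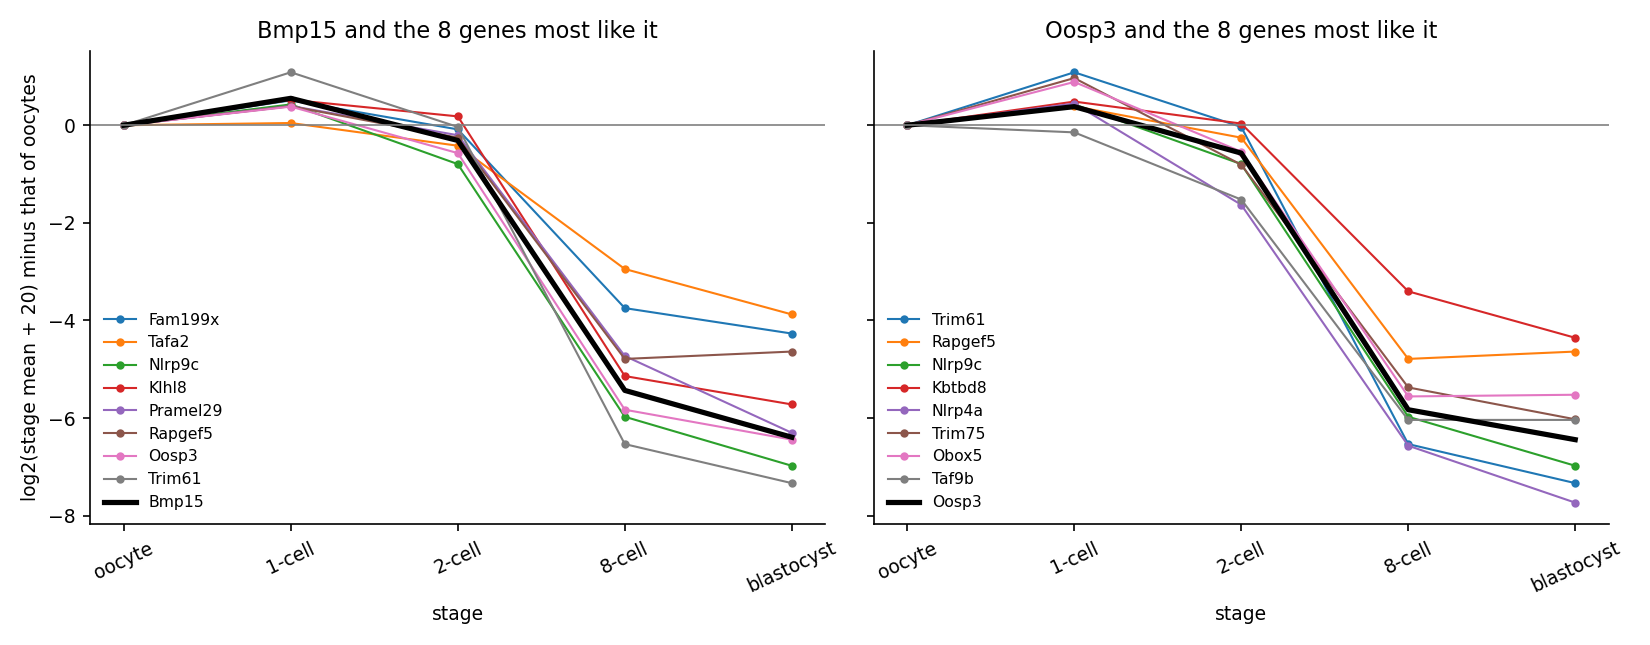
Stage means on the log2(intensity + 20) scale minus that of oocytes for Bmp15 (left) and Oosp3 (right), each in black with the 8 genes most correlated with it over the 20 arrays in colour. The coloured lines were chosen for following the black one, and their values in 8-cell embryos spread over several log2 units.

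The labelled stages were checked against markers. Of 21 listed cleavage-stage markers 3 were measured, and all were called higher in 2-cell than in 1-cell embryos (12.2% of all probe sets were). In 8-cell against 2-cell embryos 2 were called higher and 1 lower (14.1% and 13.4% of all probe sets). Obox6 averaged 7828 ± 800 in 2-cell embryos and 40.9 ± 14.3 in 1-cell embryos, Ubtfl1 4557 ± 588 and 30.9 ± 28.2, and Eif1ad 910.1 ± 203 and 206.2 ± 57.9. Eif1ad had still higher means later, at 1475 ± 258 in 8-cell embryos and 1719 ± 344 in blastocysts. Of 20 blastocyst markers 7 were measured, of which 6 were called higher in blastocysts than in oocytes (21.6% of all probe sets were), among them Tmprss2 (9176 ± 2000 against 82.8 ± 43.3), Epcam (2764 ± 571 against 301.6 ± 111), Lrp2 (471.5 ± 41.1 against 191.5 ± 39.6) and Gata6 (415.4 ± 108 against 78.5 ± 47.1). In 8-cell against 2-cell embryos 4 of the 7 were called higher (14.1% of all probe sets), and 2 in 2-cell against 1-cell embryos (12.2%). Only 3 were called higher in blastocysts than in 8-cell embryos, and 4 were not called. Lrp2 (535 ± 38.4) and Gata6 (567.9 ± 92.2) had higher means in 8-cell embryos than in blastocysts. Cumulus and granulosa cells surround the oocyte and can stay attached to it. Of 21 of their markers 7 had a probe set, and their summed intensity was 1570.6 to 1947.1 in oocytes, 1114.7 to 1614.1 in 1-cell embryos, 2951.2 to 3717.2 in 2-cell embryos, 1716.3 to 2262.3 in 8-cell embryos and 1150.4 to 1727.5 in blastocysts. Of the 2-cell sums, 1794 to 2401.9 was the probe set of Amhr2 alone. None of these markers was listed at 0, and the highest in oocytes was the granulosa factor Foxl2, at 760 ± 96.3 there and 624.1 ± 149 in blastocysts. Of the 5 that were tested, 2 were called higher and 1 lower in 2-cell than in 1-cell embryos, and 1 lower in 8-cell than in 2-cell embryos, where 12.2%, 9.34% and 13.4% of all probe sets were so called. Their part in the courses of Bmp15 and Oosp3 was not tested.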

How the data were processed

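Per the labels, total RNA was amplified in 2 rounds before hybridization. The deposited values are linear intensities, 1 per probe set, that the authors had scaled: the mean left after trimming 2% at each end was 150.02 to 150.04 on all 20 arrays, and array medians ran from 67.8 to 93.3. Scanner software and probe summarization were, in the sources used here, not given. Precision is limited by having 4 arrays a stage. Sample titles gave the stage and the replicate number.

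Of 14661 probe sets with 1 symbol, 14486 were found by Entrez identifier in the GRCm38.p6 gene table, used for names and gene order; 245 had several symbols and 7605 none. Probe sets that reached 82.6, the median of the table, on 4 or more arrays were kept and fitted in limma 3.58.1 (R 4.3.3) on log2(value + 20) with an intensity trend. A gene with several was read through its brightest one on average, which for Bmp15 is the s_at probe set. Named were the members, the 8 most correlated genes with each, and up to 4 of the brightest genes of each list. Members, lists and tests were chosen with earlier results of these data known. The comparison with Oosp2 was chosen after its values were seen. The fit was tested on simulated data with independent noise for each array and probe set. That simulation held no background floor and no spread shared among the probe sets of an array. Alternatives varied the pseudocount, scaling, filter, intensity trend, array weights, arrays in the fit, replicate block and probe set, and left out each array in turn.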

Additional observations from a re-analysis of the deposited data

Results flagged for a closer look

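In 15 groups, the 3 probe sets at 5 stages, the gap of the outermost array to its neighbour was set against the range, with a ratio that chance exceeds in about 1 of 20 groups. Bmp15 by its first probe set read 124.7 on 8-cell replicate 4, where the other arrays of that stage read 11.8 to 29.3 (gap over range 0.845). It read 37.1 on blastocyst replicate 4, where the others read 4.6 to 7.2 (0.92). On the same arrays the second probe set read 155.5, the highest of its 8-cell arrays, and 80.3, inside the range of its blastocyst arrays, and Oosp3 read 422.2 and 246.3, inside the range of its stage on both. Without 8-cell replicate 4 the log2 change of Bmp15 from the 2-cell to the 8-cell stage was -5.87.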

How the results depend on the processing

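Of 228 values of the 30 tested results under other settings, 195 kept direction and call, as did 392 of 432 with 1 array left out; the cause of the rest was not tested. For Bmp15 the 2-cell change from the 1-cell stage was called with array weights (-0.96), a common median (-1.13), the 75th percentile filter (-0.90), only the 2 stages (-0.90), pseudocount 80 (-0.88) and the other probe set (-1.88), and without arrays ran from -1.04 to -0.73. In 4 of 11 other settings, and in 16 of 20 fits without 1 array, that change of Bmp15 stayed uncalled. Its 1-cell change from oocytes was called with only the 2 stages (0.55), its 2-cell change from oocytes by the other probe set (-1.33), and its blastocyst change from the 8-cell stage ran from -1.05 to -0.28 without arrays; with only those 2 stages its probe set was too dim to test. For Oosp3 the 2-cell change from oocytes was called with array weights (-0.71), a common median (-0.90), the 75th percentile filter (-0.69), pseudocount 80 (-0.69) and quantile normalization (-0.86), and ran from -0.97 to -0.39 without arrays. Its blastocyst change from the 8-cell stage was called with only the 2 stages (-0.64) and quantile normalization (-0.73), and ran from -0.77 to -0.52; quantile normalization turned its 1-cell change (-0.17).

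Bmp15 minus Oosp3 turned sign by the other probe set at the 2-cell stage against 1-cell (-0.80) and oocyte (-0.64), at the 8-cell against the 2-cell stage (3.52), and in blastocysts against 8-cell (0.36) and oocyte (3.24). With pseudocount 80 it turned at the 8-cell against the 2-cell stage (0.70) and in blastocysts against 8-cell (0.19) and oocyte (1.24), with quantile normalization in the same comparisons (0.09, 0.04 and 0.92), with pseudocount 5 at the 8-cell stage against oocyte (-0.45), and with a common median in blastocysts against oocyte (0.03). Without arrays it ran from -0.41 to 0.32, -0.46 to 0.38 and -0.37 to 0.17 for 8-cell against oocyte, blastocyst against 8-cell and blastocyst against oocyte. Oosp3 minus Oosp2 at the 8-cell against the 2-cell stage was 0.45 with pseudocount 5 and -0.99, called, with pseudocount 80. Without arrays it ran from -0.45 to 0.25 there, -0.60 to 0.10 for blastocyst against 8-cell, and 0.93 to 1.17, 2.25 to 2.38, 1.90 to 2.60 and 1.78 to 2.29 for 1-cell, 2-cell, 8-cell and blastocyst against oocyte.

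Same-numbered arrays did not deviate together (40 pairs, r from -0.06 to 0.06); with the replicate block the 2-cell change of Bmp15 from the 1-cell stage (-0.90, adjusted p = 0.0471 by limma) and that of Oosp3 from oocytes (-0.69, adjusted p = 0.0487) were called. The median change of all probe sets was 0.18 for 8-cell against oocyte as deposited and -0.10 with a common median. Of the 8 genes most like each member, 4 for Bmp15 and 1 for Oosp3 stayed when ranked over 5 stage means. Signal over background cannot be judged without detection calls, which limits the 8-cell and blastocyst values of Bmp15.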

Other observations

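Amhr2, the receptor of anti-Müllerian hormone and a relative of the BMP receptors, was listed as a granulosa marker but had a course of its own. It read 1850, 1794, 2401.9 and 2165.1 on the 2-cell arrays, against 119, 159.4, 207.5 and 182.2 on the 1-cell arrays, with no overlap and a log2 change of 3.48 ± 0.17 (adjusted p = 1.21e-13 by limma). By the 8-cell stage it had fallen to 768.3 ± 97.1 (SD, n = 4), and in blastocysts it averaged 250.3 ± 24.9, against 196.4 ± 23.3 in oocytes. Over the same step to the 2-cell stage Foxl2 of the same list did not pass (579.1 ± 57.9 against 755.8 ± 168, adjusted p = 0.266 by limma). The Amhr2 probe set is of the x_at type, which can share sequence with other transcripts.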
